A study of Mus musculus with 8 samples.

Results

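The step from pre-Baso to mature basophils was compared between control mice and mice lacking Nfil3. For each gene, the change in log2(TPM + 1) from pre-Baso to basophils was taken in each genotype, and the control change was subtracted from the deficient one. TPM is a length-scaled share of all transcripts of a library. All 8 libraries of the series entered the comparison. Of 55487 annotated genes, the 12511 with a TPM of 1 or more in 2 or more libraries were tested, and the others were not described. The cells came from bone marrow of C57BL/6J mice in 4 groups of 2 libraries, called biological duplicates in the design text. Control mice are labelled wild type and ctrl, and littermates served as controls. The other mice are labelled Nfil3-depleted and floxed out, and are called deficient here. Both populations were gated as Lineage- CD34- ckit- CD200R3+ cells, pre-Baso by high (MAR1HI) and basophils by intermediate (MAR1INT) staining with the antibody MAR1 against the IgE receptor alpha chain. Which Cre driver removed the floxed gene, and the age of the mice, are not given in the sources used here.

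Basophils are rare granulocytes that are armed by IgE on their surface receptor and release histamine, IL-4 and chemokines. They arise in the bone marrow from dividing progenitors that fill granules with proteases, then leave the cell cycle and acquire the surface receptors and secreted mediators of the mature cell. Nfil3 encodes a leucine zipper protein that binds DNA and is known for its roles in several blood lineages.

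Nfil3 TPM was low in the deficient cells. It was 6.61 and 7.65 in the 2 control pre-Baso libraries and 20.5 and 22.5 in the control basophils. In deficient cells it was 0 and 0.624 in pre-Baso and 0.853 and 1.32 in basophils. The loss lay in the larger of the gene's 2 exons (chromosome 13, 52967209 to 52969021), whose coverage was between 4.29 and 12.04 in the control libraries and at most 0.191 in the deficient ones. The other exon (52980861 to 52981073) was covered at 1.197 to 2.87 in control libraries and at 0, 2.87, 3.40 and 5.62 in the deficient libraries, so part of the transcript remained in 3 of them. Libraries held 271.7 to 398 assigned megabases, and the TPM of protein-coding genes outside the mitochondrial genome summed to 18.4% to 22.0% of each library. Of the genes whose proteins defined the gates, Cd200r3 had 223 to 383 TPM and Fcer1a 160 to 960 TPM in the 8 libraries. The basophil protease gene Prss34 had 2667 to 25020 TPM. Mcpt8, another basophil protease gene, had 969 to 7888 TPM in control libraries but 1.98 to 6.04 TPM in deficient ones. Markers of other cells stood high in some basophil libraries. The eosinophil granule gene Prg2 had 2354 TPM in the first control basophil library, 152 TPM in the first deficient one and 12.5 to 90.1 TPM in the other 6. Cd74, of antigen-presenting cells, had 333 and 302 TPM in the first basophil library of either genotype against at most 14.1 TPM elsewhere. Counts that lead a paragraph were therefore also taken without these 2 basophil libraries, a comparison added after the data were seen.

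In deficient cells the maturation step ran in the same direction but was shorter. Genes that changed with maturation were picked by the mean of both genotypes' steps, which does not favour either genotype. At a limma adjusted p under 0.05, 2547 genes rose (20.4% of those tested) and 1669 fell (13.3%). Over the rising genes the median step was 0.75 on the log2 scale in controls and 0.64 in deficient cells, 86.0% of the control step. Over the falling genes it was -0.91 and -0.64, or 69.9%. A line through 0 fitted to both steps of all these genes had a slope of 0.737. Only 19 of the 4216 genes had steps of opposite sign in the 2 genotypes. Picking genes by the mean step leaves out most genes of that kind, so this count was largely set by the choice. Over all 12511 tested genes the Pearson correlation of the 2 steps was 0.778.

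**Figure D1:**
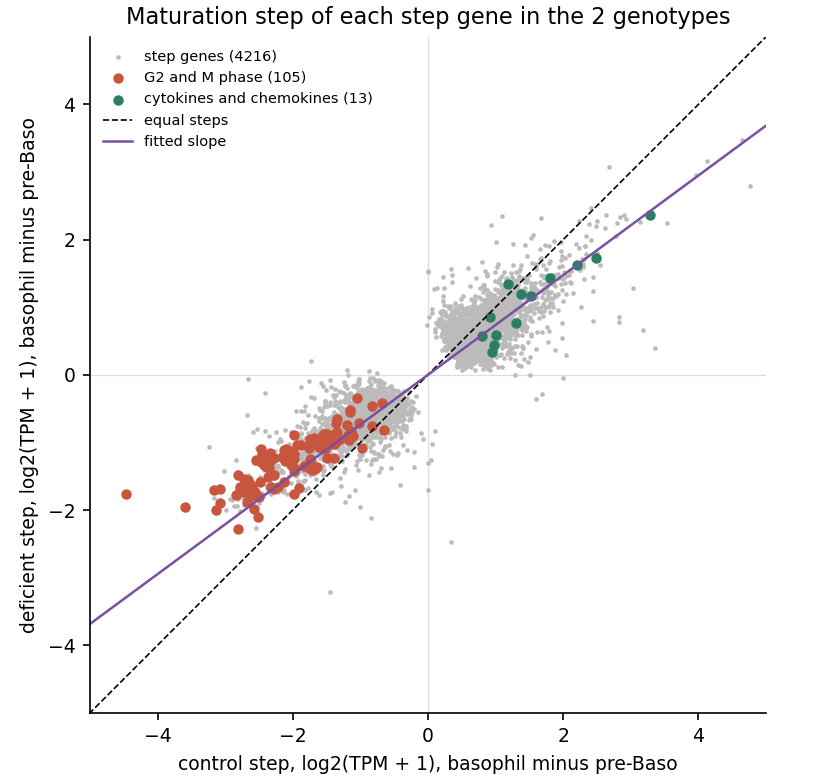
Each grey point is a step gene, with its control step on the horizontal axis and its deficient step on the vertical axis, both in log2(TPM + 1). The fitted line (slope 0.737) is flatter than the dashed line of equal steps, and most G2 and M phase genes lie above the dashed line at the lower left.

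The replicates show how firm this is. As a score, the mean log2(TPM + 1) of the falling genes was taken from that of the rising genes in each library. It was -0.645 and -0.663 in control pre-Baso, -0.769 and -0.566 in deficient pre-Baso, 1.29 and 1.28 in control basophils, and 0.909 and 0.648 in deficient basophils. The pre-Baso libraries of the 2 genotypes overlapped, while both deficient basophil libraries lay below both controls. Pairing each basophil with each pre-Baso library of its genotype gave control steps of 1.92 to 1.96 and deficient steps of 1.21 to 1.68, which do not overlap. The mean deficient score step was 74.6% of the control one. With 1 library taken per group in all 16 ways, the slope ran from 59.6% to 86.6% (SD 9.12 percentage points). The 16 choices share libraries, so this SD is a description and not a standard error of the slope. The separate shares spread further, from 59.5% to 122% for rising genes and from 45.4% to 104% for falling genes. The mean of the falling genes dropped by 0.93 to 1.25 in control pairings and by 0.56 to 0.92 in deficient ones, with no overlap. That of the rising genes went up by 0.69 to 1.01 and by 0.64 to 0.77, so the shorter rise was within the spread of single libraries.

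**Figure D2:**
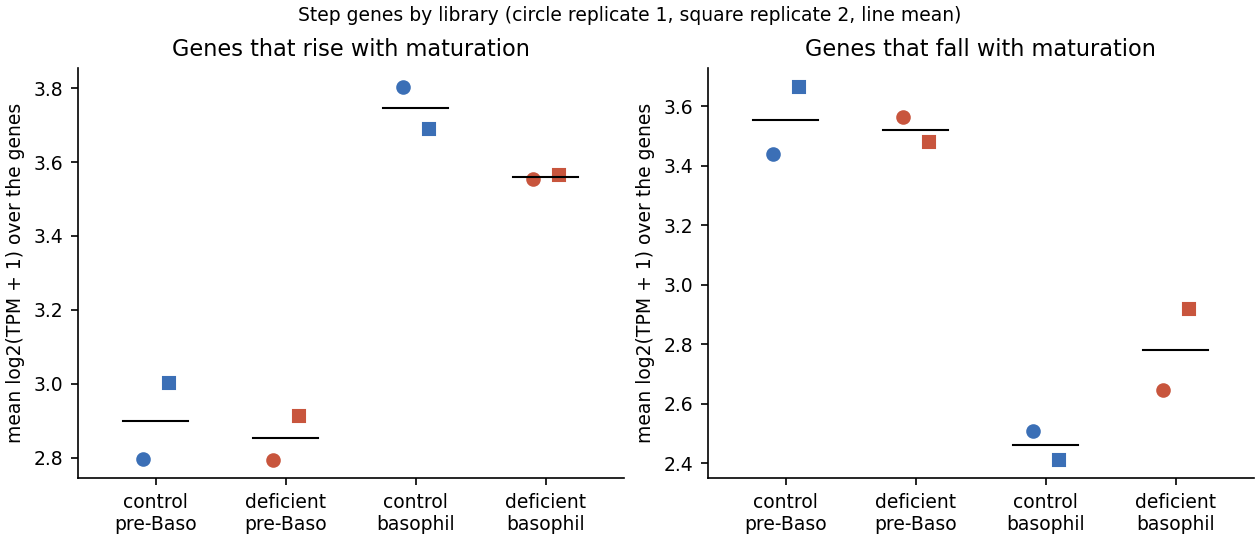
Mean log2(TPM + 1) over the 2547 rising genes (left) and the 1669 falling genes (right) in each library, with the group mean as a line. Deficient basophils lie between pre-Baso and control basophils in both panels, and pre-Baso libraries of the 2 genotypes overlap.

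Over all rising and all falling genes, the median difference lay mainly at the basophil end of the step. Falling genes had a median genotype difference (deficient minus control) of -0.01 in pre-Baso and 0.28 in basophils. For rising genes these medians were -0.06 and -0.18. Some of the gene lists below did not follow this. Of the 1669 falling genes, 864 (51.8%) had both deficient basophil libraries above both controls, against 17.2% of all tested genes, and 48 had both below. Of the rising genes, 1286 (50.5%) had both deficient basophil libraries below both controls, against 21.4% of all tested genes. In bulk RNA, basophil gates that hold more immature cells and a smaller change in each cell cannot be told apart.

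No single gene passed the test of the difference. The smallest limma adjusted p was 0.536, and 689 genes had an unadjusted p under 0.05, where 5% of the genes would be 626. Of these, 461 (3.68% of the genes tested) had a deficient step above the control step and 228 (1.82%) below it. The median standard error of the difference was 0.30, and the median 95% interval reached 0.69 to either side, so smaller differences of single genes were not resolved with 2 libraries per group. Among falling genes, 254 (15.2%) had a smaller deficient step at an unadjusted p under 0.05 and 13 a larger one. Among rising genes, 114 (4.48%) had a smaller and 25 a larger step. These counts moved with single libraries: the 254 became 96 without the second deficient basophil library and 99 without the second control pre-Baso library, and the 114 became 59 and 244 without the first and the second control pre-Baso library. All gene values below are therefore descriptions with their standard error, and "fell" and "rose" refer to the mean step, which did pass.

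The gap in log2 units was wider for genes with large steps. Of the 62 genes that fell by more than 2 on the log2 scale, 61 fell less in deficient cells, and 42 of them had an unadjusted p under 0.05. Their median step was -2.71 in controls and -1.76 in deficient cells. Of the 32 genes that rose by more than 2, 29 rose less, 13 of them with an unadjusted p under 0.05, and the medians were 2.58 and 2.24. Among steps under 0.5 the smaller deficient step was seen in 163 of 232 falling and 361 of 548 rising genes. As a share of the control step, the deficient step differed less between size classes, at 64.9% to 71.5% for falling and 79.0% to 86.6% for rising genes. By expression level, the share was 69.9% for rising genes above 100 TPM and 88.9% for those below 5 TPM, and 88.3% and 68.0% for falling genes.

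Apart from markers of other cells, the cell division lists had the widest gaps between median steps. Among G2 and M phase genes, 103 of the 106 tested had a smaller fall in deficient cells. Of these 41 had an unadjusted p under 0.05, and 0 had a larger fall at that level. Of all falling genes 83.1% had a smaller fall, 15.2% at that level. For mean falls of 1 to 2 these were 92.7% and 27.2%, and above 2 they were 98.4% and 67.7%. The deficient share was 62.2% for G2 and M genes, against 66.7% and 64.9% in these 2 size classes. Their median step was -1.99 in controls and -1.24 in deficient cells. In TPM, the median gene kept 10.9% of its pre-Baso level in control basophils and 31.6% in deficient basophils. The summed level of the listed genes was 1649 and 2115 TPM in control pre-Baso and 1842 and 1700 TPM in deficient pre-Baso, so the 2 genotypes overlapped there. It was 342 and 339 TPM in control basophils and 488 and 755 TPM in deficient basophils. The number at an unadjusted p under 0.05 depended on single libraries. Without the second deficient basophil library, the one with the higher sum, the count was 92 of 106 with 16 at that level, and the median difference went from 0.69 to 0.44. Without the second control pre-Baso library it was 97 of 106 with 14 at that level, and without the first deficient basophil library 104 of 106 with 63. Without the first basophil library of each genotype it was 104 of 106.

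Birc5, which encodes the inhibitor of apoptosis survivin and acts in chromosome segregation, had the largest difference among G2 and M genes. It lies on chromosome 11 from 117849251 to 117855743 (mm10). Its TPM was 67.3 and 89.8 in control pre-Baso, 82.7 and 63.4 in deficient pre-Baso, 2.60 and 2.50 in control basophils and 15.1 and 28.4 in deficient basophils. Both deficient basophil libraries were above both controls, while pre-Baso libraries overlapped. The log2 step was -4.47 in controls and -1.76 in deficient cells, a difference of 2.71 ± 0.41 (SE, limma adjusted p = 0.536), and it lay between 1.87 and 3.17 in the 20 alternatives tried.

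Cdk1, the kinase that drives entry into mitosis, was at 21.3 and 27.2 TPM in control pre-Baso and at 23.9 and 18.8 TPM in deficient pre-Baso. In basophils it was at 3.33 and 1.99 TPM in controls and at 6.79 and 7.16 TPM in deficient cells (difference of the steps 1.32 ± 0.32). Ccnb2, a cyclin partner of that kinase, kept 9.92% of its pre-Baso mean in control and 29.9% in deficient basophils. Top2a, the topoisomerase that untangles chromosomes, had 2.96 and 6.95 TPM in control basophils and 8.93 and 23.4 TPM in deficient basophils, a wide spread between the deficient replicates. The spindle genes Tpx2 and Aurka differed by 1.28 ± 0.31 and 1.08 ± 0.27. Stmn1, a regulator of microtubules, differed by 1.46 ± 0.35 with 5.35 and 7.37 TPM in control and 14.9 and 25.4 TPM in deficient basophils.

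**Figure D3:**
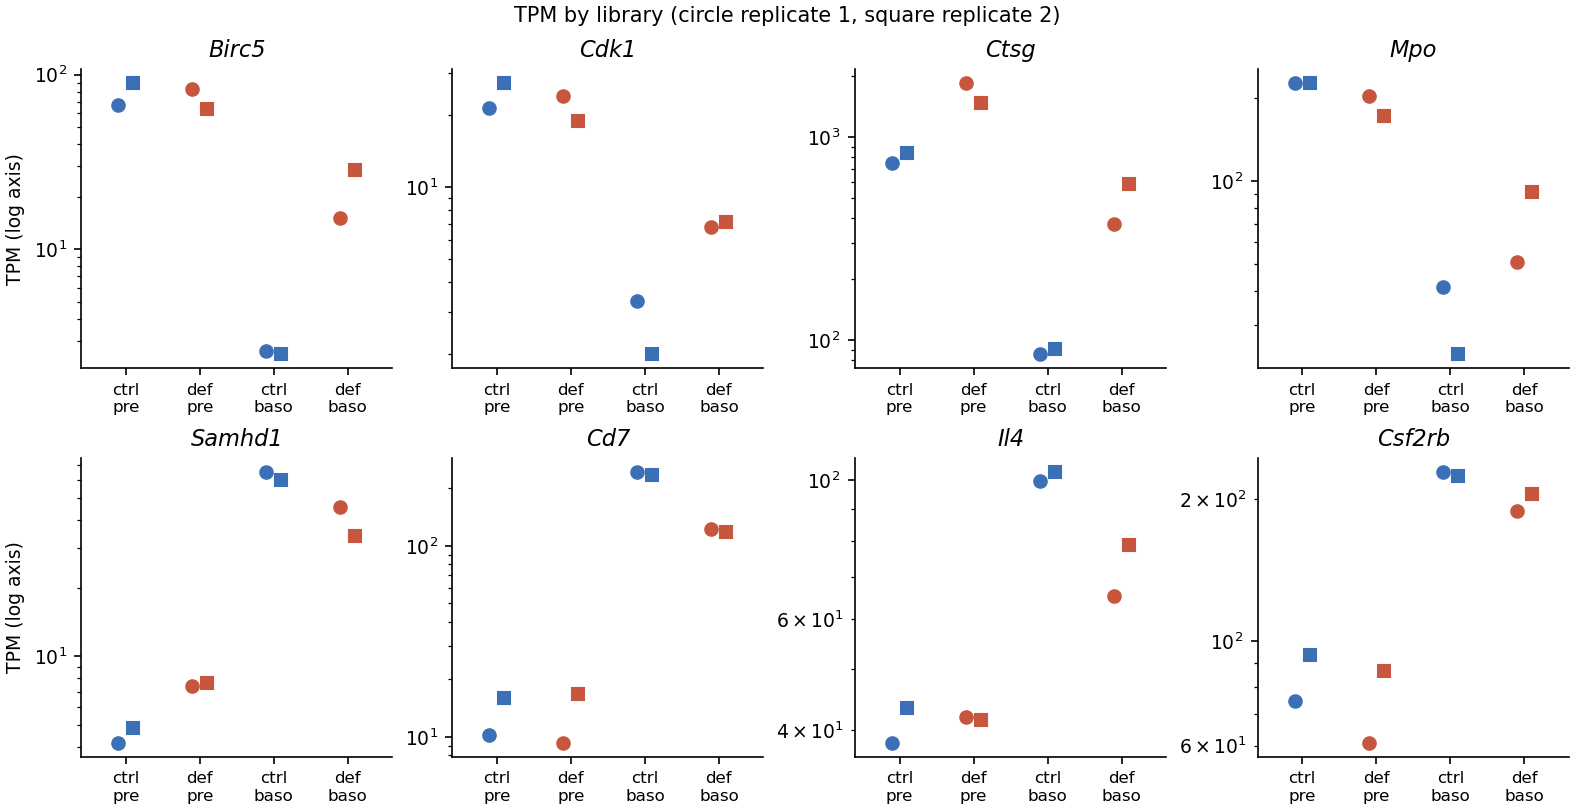
TPM of 8 genes by library on log axes, control in blue and deficient in red. Birc5, Cdk1, Ctsg and Mpo stay higher and Samhd1, Cd7 and Il4 stay lower in deficient than in control basophils, while Csf2rb reaches 223 to 228 TPM in control and 188 to 204 TPM in deficient basophils.

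Promoters of genes that peak in G2 and M commonly carry a CHR element, bound by the DREAM and MuvB complexes that switch these genes off outside the cycle, together with CCAAT boxes bound by NF-Y. The 150 bases before the start site of 4 of these genes are shown because these genes were higher together in deficient basophils. They are from RefSeq (GRCm38.p6), in lower case 5′ to 3′ on the gene's strand, with the letters TTTGAA of the CHR element and the CCAAT box, on either strand, in capitals:
Cdk1, chr10:69352913-69353062, minus strand: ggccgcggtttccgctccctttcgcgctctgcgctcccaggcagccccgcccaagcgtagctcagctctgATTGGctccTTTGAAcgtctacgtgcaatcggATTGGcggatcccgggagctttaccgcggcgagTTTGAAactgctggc
Ccnb2, chr9:70421555-70421704, minus strand: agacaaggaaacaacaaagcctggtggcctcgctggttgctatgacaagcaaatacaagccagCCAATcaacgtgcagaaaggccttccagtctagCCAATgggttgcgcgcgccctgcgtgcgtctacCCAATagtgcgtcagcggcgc
Top2a, chr11:99024190-99024339, minus strand: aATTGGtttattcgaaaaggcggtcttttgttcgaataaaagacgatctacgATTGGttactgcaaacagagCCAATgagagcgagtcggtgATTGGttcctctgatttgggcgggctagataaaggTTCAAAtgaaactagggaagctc
Aurka, chr2:172370571-172370720, minus strand: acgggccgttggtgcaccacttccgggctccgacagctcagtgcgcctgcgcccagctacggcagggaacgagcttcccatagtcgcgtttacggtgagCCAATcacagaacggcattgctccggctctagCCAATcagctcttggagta

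Over the 250 bases before the start, on both strands, CHR letters were found in 33 of the 86 G2 and M promoters (38.4%) that matched, against 11.2% of the 7569 promoters of tested genes. They were not particular to G2 and M genes, being in 41.3% of histone and 26.7% of interferon response promoters. In S phase promoters they were in 12.1%. CCAAT letters were found in 59 of the G2 and M promoters (68.6%), against 37.2%. The letters TTANNTAA, the core shared by NFIL3 and the related PAR bZIP factors, were in 3 of the G2 and M promoters (3.49%), against 3.36%. Sites of different motifs can share end letters. The 170 promoters of falling genes with a smaller deficient fall at an unadjusted p under 0.05 held CCAAT in 61.2% and TTANNTAA in 6.47% (11 promoters). The other 872 promoters of falling genes held them in 46.7% and 3.33% (29 promoters). TTANNTAA was in 8 of 46 histone promoters (17.4%) and in 5.43% of all 32851 RefSeq promoters. How many of the 11 belong to histone genes was not counted. In the 72 promoters of rising genes with a smaller rise at that level, TTANNTAA was in 4.17%, against 3.74% in the other 1657. A match is letters only, and binding was not measured.

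DNA replication genes and histones followed the same course. Of 72 genes of the S phase, 65 were above 0 in the difference of the steps, 17 at an unadjusted p under 0.05. Of the 64 that fell, 59 fell less in deficient cells, against 92.7% of all genes with mean falls of 1 to 2. The median step of the list was -1.41 in controls and -0.82 in deficient cells. Rrm2, the small subunit of ribonucleotide reductase, had 7.52 and 7.15 TPM in control basophils and 14.4 and 24.5 TPM in deficient basophils, from 45.4 to 69.9 TPM in pre-Baso (difference 1.59 ± 0.36). Orc6 of the origin recognition complex differed by 1.23 ± 0.25 and Dtymk, which makes dTDP, by 1.02 ± 0.29. All 59 tested replication-dependent histone genes had a smaller fall, 22 at an unadjusted p under 0.05, with medians of -2.15 and -1.60. Among all genes with mean falls of 1 to 2, 92.7% had a smaller fall, 27.2% at that level. Above 2 these were 98.4% and 67.7%. The deficient step was 74.8% of the control step for histones and 58.3% for S phase genes, against 69.9% for all falling genes. It was 66.7% for mean falls of 1 to 2 and 64.9% above 2. H2bc3 had 13.6 and 12.8 TPM in control and 27.1 and 37.5 TPM in deficient basophils. Histone genes are near-identical copies of each other, so reads may be split among them. Regulators of G1 were less uniform, with 24 of 33 above 0 and 4 at an unadjusted p under 0.05, among them Cdk6 (1.14 ± 0.35) and the inhibitor Cdkn2c (1.21 ± 0.32).

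Without the second deficient basophil library the S phase count was 60 of 72, with 10 at an unadjusted p under 0.05, and the histone count 55 of 59, with 3. The smaller fall was also seen outside cell division. Without the S phase, G2 and M, and histone lists, 1441 falling genes were left, of which 1166 (80.9%) fell less in deficient cells, with a share of 70.0%. The score without these genes gave steps of 1.81 in all control pairings and 1.15 to 1.59 in deficient ones, so they did not overlap there either.

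**Figure D4:**
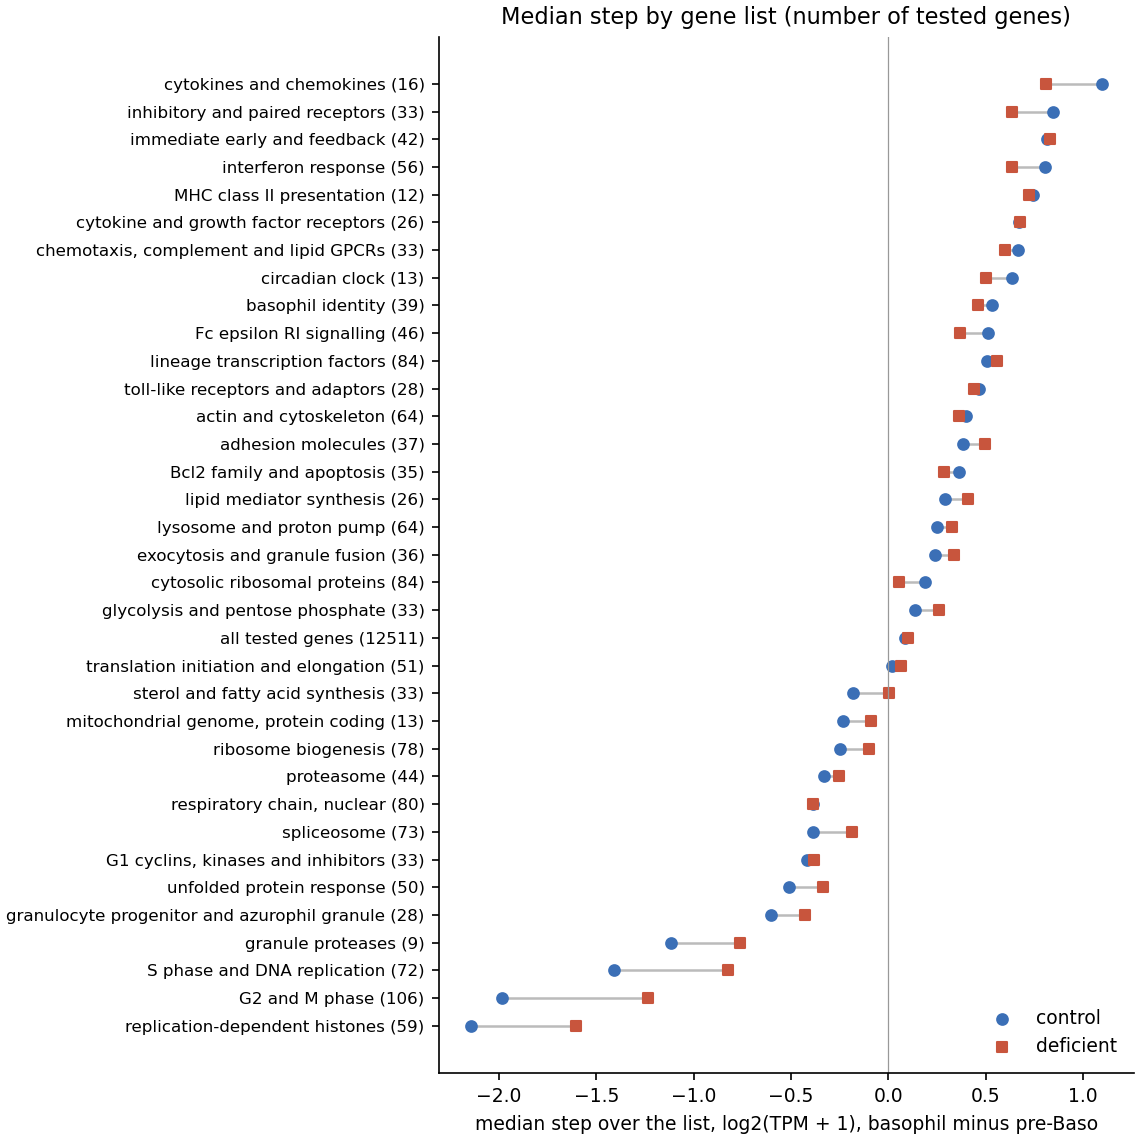
Median step over each gene list in control (blue circles) and deficient cells (red squares), in log2(TPM + 1), ordered by the control median, with all tested genes for comparison. Markers of other cell types are not drawn, and among the lists drawn the widest gaps are those of the 3 cell division lists and of the granule proteases. The granule proteases include Mcpt8 and Ctsg, whose limits are given in the text.

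The secretory and biosynthetic machinery of growing cells showed smaller gaps. Among 50 genes of the unfolded protein response, which enlarges the capacity of the endoplasmic reticulum, 43 had a deficient step above the control step, 6 at an unadjusted p under 0.05 and 1 in the opposite direction (median difference 0.32). Sdf2l1, a chaperone cofactor, had 13.8 and 7.90 TPM in control and 18.8 and 27.7 TPM in deficient basophils, from 59.0 to 69.9 TPM in pre-Baso. Ribosome biogenesis had 54 of 78 genes above 0 (median 0.21), the spliceosome 49 of 73 (0.13) and sterol and fatty acid synthesis 26 of 33 (0.16). For comparison, 53.3% of all tested genes were above 0, with a median of 0.03. Without the second deficient basophil library 37 of 50 genes of the unfolded protein response were above 0 and 0 reached an unadjusted p under 0.05. For the nuclear-encoded respiratory chain 37 of 80 were above 0 (median -0.03), and this sign turned with FPKM in place of TPM (0.0046).

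Granule genes of immature granulocytes also fell less in deficient cells. Ctsg (chromosome 14, 56099881 to 56102574), which encodes the serine protease cathepsin G, was at 745 and 841 TPM in control pre-Baso and 1857 and 1486 TPM in deficient pre-Baso. In basophils it was at 85.1 and 90.4 TPM in controls and 375 and 592 TPM in deficient cells. It was thus higher in every deficient library of either population, and its step was -3.16 in controls and -1.82 in deficient cells (difference 1.34 ± 0.30). Mpo, the myeloperoxidase of azurophil granules, went from 228 and 227 to 41.3 and 23.4 TPM in controls and from 204 and 172 to 50.9 and 91.1 TPM in deficient cells (difference 1.38 ± 0.44). Ms4a3, a membrane protein of granulocyte precursors, differed by 0.98 ± 0.36, with basophil means of 22.8 ± 6.86 TPM in controls and 39.2 ± 10.9 TPM in deficient cells (SD, n = 2).

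Prss34, the basophil protease mMCP-11, was the most abundant of these. It was at 19820 and 25020 TPM in control pre-Baso and at 22153 and 18974 TPM in deficient pre-Baso. In basophils it was at 2667 and 4617 TPM in controls and at 5643 and 9494 TPM in deficient cells (difference 1.18 ± 0.41). Cpa3, the mast cell and basophil carboxypeptidase, kept 28.9% of its pre-Baso mean in controls and 39.3% in deficient cells (0.41 ± 0.28), with overlapping basophil libraries. Of 9 tested granule proteases 8 were above 0, 3 at an unadjusted p under 0.05 (Mcpt8, Ctsg and Prss34). Mcpt8 and Ctsg lie close together on chromosome 14 and carry the limits given below for Mcpt8 and its region. The differences of Elane, Prtn3, Gzmb and Prss57 were 0.43 to 0.54 with standard errors of 0.45 to 0.72. Cma1 was at -0.37 ± 0.42. Without the second control basophil library 5 of the 9 were above 0. Over 28 genes of granulocyte progenitors and azurophil granules, a list that includes some of these proteases, 20 were above 0 and 3 at an unadjusted p under 0.05 (median 0.24). Without the second control basophil library 16 of 28 were above 0 (median 0.07).

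Mcpt8, the basophil protease mMCP-8, cannot be read this way. It went from 6244 and 7888 TPM in control pre-Baso to 969 and 1400.4 TPM in control basophils, but from 4.08 and 6.04 to 2.73 and 1.98 TPM in deficient cells. Its smaller deficient step (difference 1.75 ± 0.34) is that of a gene already near the pseudocount in both deficient populations. Rnase12, a ribonuclease gene of the same chromosome, was alike, with 91.9 and 111 TPM in control and 2.55 and 2.81 TPM in deficient pre-Baso. Cre lines inserted at Mcpt8 exist, and whether one was used here is not given in the sources used here. Within 10 Mb of Mcpt8 on chromosome 14, 19 of 160 tested genes (11.9%) had an unadjusted p under 0.05 for the difference of the steps, against 5.42% of the 12351 genes elsewhere. They include Ctsg, Lgals3, Sdr39u1 and Osgep, so for these genes an effect tied to the Mcpt8 region and one of Nfil3 cannot be told apart. Mcpt8 was nearly absent in every deficient library. For all other genes, too, the loss of Nfil3 and that of Mcpt8 therefore cannot be told apart.

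Over all rising genes, 1741 of 2547 (68.4%) had a smaller deficient step, which is the background for the rising members of the lists. That share ran from 61.9% below 5 TPM to 94.1% above 100 TPM. By step size it ran from 65.9% for mean steps under 0.5 to 90.6% above 2. The lists were not matched for either. Of all 12511 tested genes, 5841 were below 0 in the difference of the steps, the background for all tested members. The order of the rising and falling shares depended on single libraries: it turned without the second control pre-Baso library (71.6% rising, 74.1% falling) and without the second deficient basophil library (85.3% and 87.1%). Without the first basophil library of each genotype the rising share was 93.0%, 1440 of 2451 rising genes (58.8%) had a smaller step, and 47 did so at an unadjusted p under 0.05.

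Samhd1 (chromosome 2, 157097533 to 157135265), which degrades dNTPs in non-dividing cells, was at 4.14 and 4.82 TPM in control pre-Baso and at 7.44 and 7.66 TPM in deficient pre-Baso. In basophils it reached 65.4 and 60.1 TPM in controls and 45.6 and 34.0 TPM in deficient cells. The genotypes did not overlap in either population and stood in opposite order in pre-Baso and basophils. The step was 3.54 in controls and 2.24 in deficient cells, a difference of -1.30 ± 0.26 (SE, limma adjusted p = 0.668). Cd7, a surface glycoprotein of the immunoglobulin family, rose from 10.2 and 16.1 to 245 and 236 TPM in controls and from 9.28 and 16.7 to 123 and 118 TPM in deficient cells (difference -0.96 ± 0.39). Its pre-Baso libraries overlapped, and both deficient basophil libraries were below both controls.

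Secreted mediators were mostly below 0 in the difference of the steps. Of the 13 that rose, 12 had a smaller deficient step, against 68.4% of all rising genes and 94.1% of those above 100 TPM. For mean rises of 1 to 2 the share was 75.9% and above 2 it was 90.6%, so the count is not particular to mediators. Of 16 tested cytokines and chemokines 12 were below 0, 4 at an unadjusted p under 0.05 (Ccl6, Il4, Ccl9 and Ccl4), with median steps of 1.10 in controls and 0.81 in deficient cells. Their median genotype difference (deficient minus control) was 0.19 in pre-Baso and -0.24 in basophils, so both ends of the step contributed. Il4, the type 2 cytokine of basophils, went from 38.1 and 43.4 to 99.4 and 103 TPM in controls and from 41.9 and 41.5 to 65.4 and 78.7 TPM in deficient cells (-0.53 ± 0.21). Ccl6 reached 1713 and 1726 TPM in control and 1433 and 1348 TPM in deficient basophils, from 144 and 215 and from 249 and 290 TPM (-0.91 ± 0.25). Ccl9 and Ccl4, also chemokines, differed by -0.58 ± 0.23 and -0.76 ± 0.32. The count depended on the libraries high in markers of other cells: without the first basophil library of each genotype 8 of 15 were below 0 and the median difference was -0.03. Ccl6 is also expressed by other myeloid cells, whose part in its value was not tested.

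Receptors were mixed. Il7r, the IL-7 receptor alpha chain, reached 21.1 and 26.1 TPM in control and 14.5 and 11.4 TPM in deficient basophils (-0.92 ± 0.29). Il18r1, a receptor for IL-18, differed by -0.77 ± 0.27, and Gpr183, a receptor for oxysterols that guides migration, by -0.85 ± 0.23 with 45.1 and 39.6 TPM in control and 24.0 and 24.2 TPM in deficient basophils. Over 26 receptors of cytokines and growth factors 18 were below 0, 3 at an unadjusted p under 0.05 (median -0.07). Over 33 G protein-coupled receptors of chemotaxis and lipid mediators 22 were below 0, again 3 at that level (-0.15). The latter median was 0.00, with 16 of 33 below 0, when the first control pre-Baso library was left out.

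Interferon response genes mostly rose with maturation, 37 of 56 passing the test of the mean step. In the difference of the steps 41 of the 56 were below 0, 5 at an unadjusted p under 0.05 (median -0.22). Of the 37 that rose, 31 had a smaller deficient step, against 68.4% of all rising genes. That share was 77.3% for rising genes of 20 to 100 TPM and 75.9% for mean rises of 1 to 2. Slfn2, a regulator of quiescence in leukocytes, reached 69.9 and 73.4 TPM in control and 53.6 and 47.6 TPM in deficient basophils (-0.72 ± 0.22), and Zbp1, a sensor of nucleic acids, differed by -1.19 ± 0.35. The median was -0.09 when the first control pre-Baso library was left out. Cytosolic ribosomal protein genes had a median genotype difference (deficient minus control) of 0.15 in pre-Baso and -0.01 in basophils, so their gap lay in pre-Baso. In the difference of the steps they were below 0 in 65 of 84 cases, with a median of -0.15 and 1 at an unadjusted p under 0.05. Without the second control pre-Baso library the median was -0.27 with 16 at that level, and it was -0.07 with the first library of deficient pre-Baso left out.

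Basophil identity genes went both ways. Their list includes the targeted gene Nfil3, which was below 0 in the difference of the steps, and Mcpt8. Neither can be read like the other members. Of 39 such genes 26 were below 0, 5 of them at an unadjusted p under 0.05 (Cd7, Il18r1, Ccl4, Lilrb4a and Il4), and 2 were above 0 at that level, Mcpt8 and Prss34 (median -0.12). The median changed sign to 0.02 without the first library of control pre-Baso, and it was -0.01 without the first basophil library of each genotype. The signalling genes of the IgE receptor had 33 of 46 below 0 with 0 at an unadjusted p under 0.05 in either direction (median -0.08), and this median changed sign, to 0.01, without the first control pre-Baso library and, to 0.02, without the first basophil library of each genotype. Csf2rb, the beta chain shared by the IL-3, IL-5 and GM-CSF receptors, rose from 74.5 and 93.3 to 228 and 223 TPM in controls and from 60.7 and 86.5 to 188 and 204 TPM in deficient cells. Its steps were 1.43 and 1.42 (95% interval of the difference -0.61 to 0.61). Its IL-3-specific homologue Csf2rb2 stood at 0.05 ± 0.26, Hdc, which makes histamine, at -0.14 ± 0.25 and Alox15, a lipoxygenase, at 0.03 ± 0.25. The lineage factors Gata2, Gata1 and Cebpa stood at 0.34 ± 0.30, -0.05 ± 0.26 and 0.09 ± 0.24. The 95% intervals of Hdc, -0.71 to 0.44, and Gata2, -0.36 to 1.04, show that sizeable differences of these genes were not resolved. Fcer1a, whose protein defined the gates, fell in both genotypes, by 1.29 and 1.65 on the log2 scale, and had 424 and 280 TPM in control and 245 and 160 TPM in deficient basophils.

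Summed neutrophil, monocyte and eosinophil markers overlapped between the genotypes in basophils. Neutrophil markers (24 genes, 3 at 0 in every library) had 2808 and 1633 TPM in control and 2467 and 1516 TPM in deficient basophils, against 882 to 1338 TPM in pre-Baso. Summed monocyte and macrophage markers had 989 and 366 TPM in control and 900.2 and 422 TPM in deficient basophils. Eosinophil markers (11 genes) had 2744 and 104 TPM in control and 252 and 92.0 TPM in deficient basophils, and 9 of 10 tested ones were below 0 in the difference of the steps. The T cell gene Cd3e was at 0 in 7 of 8 libraries and the mast cell protease Mcpt4 at 0 in all 8. Markers of plasmacytoid dendritic cells did not overlap, at 54.2 and 49.4 TPM in control and 56.5 and 55.6 TPM in deficient basophils.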

How the data were processed

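Bone marrow pre-Baso and basophils of both genotypes were sequenced as RNA (SMARTER mRNA-Seq kit, per the labels' protocols). Per the file headers, the authors ran StringTie 2.1.4 on the Ensembl GRCm38 annotation, release 101, estimating its transcripts only; HISAT2 and mm10 are named in the submitters' processing notes. The deposited files give TPM, FPKM and coverage per transcript, and no other unit or read count was used. Strand use is not given in the sources used here, so antisense and overlapping genes are uncertain.

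TPM was summed per gene. Genes with 1 TPM or more in 2 or more libraries were analysed as log2(TPM + 1), which understates changes of low genes, with limma 3.58.1 in R 4.3.3 (trended moderation, 1 mean per group, Benjamini-Hochberg over all genes). The error has 4 residual degrees of freedom, and whether duplicates came from separate mice is not stated beyond the design text. Genes that changed were those with an adjusted p under 0.05 for the mean step. Named genes were Nfil3 and Mcpt8, the 20 with the smallest p of the difference in each direction and the 8 highest and lowest mean steps (both above 5 TPM in a group), up to 4 members per list by p, all identity and granule protease genes, and abundant markers of other cells. The members and gene lists were chosen with earlier results of these data known. Scripts were tested on simulated data. Alternatives changed the pseudocount, filter, scaling, moderation, replicate block and libraries. Some results are not reported here.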

Additional observations from a re-analysis of the deposited data

Results flagged for a closer look

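For the genes named here, both libraries of each genotype stepped in opposite directions between pre-Baso and basophils. None of these differences passed the limma adjusted threshold. The deficient step was below the control step for Sdr39u1 (-2.63 on the log2 scale), Cnih4 (-1.46), Chic2 (-1.08) and Gpatch11 (-0.91). It was above it for the receptor Treml2 (1.34), Ptgr2 (1.10), the adhesion molecule Icam1 (0.54) and the E protein Tcf3 (0.67). The same held for the ribosomal RNA transcription genes Polr1b (0.95) and Ubtf (0.59) and the translation genes Rplp2 (0.51), Eif5b (0.42) and Eef1a1 (0.28). The others were Atp6v1e1 (0.74), Plbd2 (0.55) and Derl2 (0.53). Sdr39u1 lies within 10 Mb of Mcpt8.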

How the results depend on the processing

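The count of genes with a different step was 0 of 12511, and 2 (Defb40 and Gm8909) with a pseudocount of 0.1 and 2 with TPM rescaled to protein-coding genes. Without the filter on low values 788 genes were higher and 557 lower at an unadjusted p under 0.05, and 1676 genes rose with maturation. With TPM of at least 5 these were 255 higher and 121 lower, and with median-of-ratios scaling 347 were lower. Leaving out 1 library at a time, with the lone library assumed to vary like the other groups, gave 0 to 3 called genes, 219 to 663 genes higher and 123 to 442 lower, 1667 to 2315 rising genes, and at most 3674 genes that changed with maturation. The slope was lowest, 66.1%, without the second control basophil library. Without the second deficient basophil library the falling share was 87.1% and the slope 86.6%, and without the second deficient pre-Baso library the slope was 83.4%. Without the first basophil library of each genotype, chosen after seeing the data, 756 were higher, 2704 genes changed with maturation, 1534 of them rising, and the falling share was 52.1%. The higher share of unadjusted calls was 66.9%, and 81.6% and 33.1% without the first and the second control pre-Baso library. With step genes chosen by the control step alone the slope was 66.9%, and by the deficient step alone 80.2%. With a replicate block, 0 genes were called, and 728 (block by number) or 647 (within genotype) had an unadjusted p under 0.05. Deviations of same-numbered libraries correlated at -0.054 to 0.20, so the numbers were not taken as pairs. Of 4392 combinations of a named gene and an alternative, 122 changed sign.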
